A study of Homo sapiens with 16 samples.

Results

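The genes described here are 10 markers and regulators of the endoplasmic reticulum (ER) stress response and of its ATF4 arm, namely HSPA5, HSP90B1, DDIT3, ATF4, XBP1, ATF6, ERN1, EIF2AK3, DNAJB9 and HERPUD1. They were chosen by symbol, and all 10 were found among the 60669 genes of the deposited table of TPM (a level scaled for gene length and library total). The study measured RNA in HMC3, an immortalised human line labelled as microglial cells, in wild-type cells and in cells labelled as a knockout of METTL3, the catalytic subunit of the complex that methylates adenosines in mRNA. From 100 ng of RNA per library, 3 wild-type and 3 knockout-labelled libraries were made with a directional kit once ribosomal RNA had been removed, and 5 and 5 by a Smart-seq2 protocol with poly(A) selection, a total of 16. No stress treatment is named for any group. The labels do not say whether the knockout cells are 1 clone or a pool, or whether libraries come from separate cultures, so p-values measure only the spread between these samples.

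Unfolded protein in the ER lumen is sensed by 3 membrane proteins. ERN1 (IRE1) splices the mRNA of the transcription factor XBP1, ATF6 travels to the Golgi and is cut to release a transcription factor, and EIF2AK3 (PERK) phosphorylates the initiation factor eIF2, which slows general translation while favouring translation of ATF4. ATF4 and its target DDIT3 (CHOP) act on amino acid supply and cell death, whereas XBP1 and ATF6 raise ER chaperones such as HSPA5 (BiP) and HSP90B1 (GRP94) and degradation genes such as DNAJB9 and HERPUD1. The libraries measured RNA only, so splicing of XBP1, cutting of ATF6, phosphorylation and ATF4 protein are outside what the values show.

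In the rRNA-depleted libraries the recovered depth was 407900, 266157 and 487272 reads in wild type and 1038575, 1267171 and 512627 in the labelled knockout. Every wild-type library was thus shallower than every knockout-labelled one. With reads thinned to the shallowest library, 2015 of 13255 genes were called higher and 1555 lower, beside 3382 and 1838 of 14789 as reported. The part of depth in single calls was not tested otherwise. Of the 10 genes, 5 (ATF6, DDIT3, DNAJB9, EIF2AK3 and ERN1) had at most 11 reads in any wild-type library. The knockout-labelled libraries 1 and 2 did not differ detectably beyond sampling noise (chi-square of 1.02 per degree of freedom over 10117 genes, p = 0.0687, against 1.17 to 1.54 for the other pairs within a group) and were counted as 1 sample, so that 3 wild-type samples were set against 2 knockout-labelled samples. METTL3 itself had 31.2, 31.6 and 25.4 TPM in wild type against 39.2, 39.96 and 42.7 TPM in the labelled knockout, where limma gave a log2 change of 0.48 with an SE of 0.19 (adjusted p = 0.106). Its mRNA was therefore not lower where the label says knockout, and every direction in these libraries rests on the labels alone. The direction taken for the poly(A) comparison rests in turn on its signs beside these libraries, as given below. Of 10 microglial and macrophage markers, 7 (AIF1, CX3CR1, P2RY12, TMEM119, ITGAM, PTPRC and SPI1) were at 0 in all 6 libraries, and the summed level of the list was 0 to 6.47 TPM. A list of 8 fibroblast and pericyte markers summed to 11521 to 13945 TPM in wild type and 5359 to 5452 TPM in the labelled knockout. In this list LUM was at 0 throughout, and COL3A1 and DCN had at most 2 reads in any library. Of its 5 tested genes 3 were lower, COL1A1 (10669 to 819 TPM), COL1A2 and PDGFRB, and 2 were higher, FN1 (835 to 2191 TPM) and VIM (477 to 2242 TPM), so the fall of the sum is that of COL1A1. The part of these differences in the results below was not tested. Among 14789 genes tested, 35.3% passed an adjusted p of 0.05 in limma, 22.9% higher and 12.4% lower in the labelled knockout, and the median gene was 0.41 higher on the log2 scale of TPM + 1 on which all changes below are given. After median ratio scaling that median was 0.11, and 48.6% instead of 64.8% of the calls were higher. In these bulk samples fewer cells of a type and less RNA per cell cannot be told apart.

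All 10 genes passed the filter on low values, and 7 passed the test, 5 higher (HSP90B1, ATF6, DDIT3, DNAJB9 and HERPUD1) and 2 lower (XBP1 and ATF4) in the labelled knockout. The same 7 were those whose samples did not overlap between the groups, which was so for 62.7% of all genes tested. The share of all genes past the test is 35.3%, and whether the set differs from it was not tested. DNAJB9 had no read in wild type and passed the filter only through the knockout-labelled group, so its call was fixed in direction and supports nothing. Without it 4 of 9 genes were higher and 2 lower. The median log2 change of all 10 genes was 0.89, beside 0.41 for all genes tested. It was 0.69 without DNAJB9, and 0.36 with DNAJB9 set to its bound of 3 reads per wild-type library. ATF4 fell, its target DDIT3 rose, and the chaperone HSPA5 did not pass the test. Leaving out knockout-labelled library 3, after which 1 sample stands for that group, took the count of higher genes from 5 to 1, of lower genes from 2 to 1 and of all genes called from 5220 to 1663. Without wild-type library 3 the counts were 3 higher and 1 lower, and without wild-type library 1 they were 4 and 1.

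**Figure D1:**
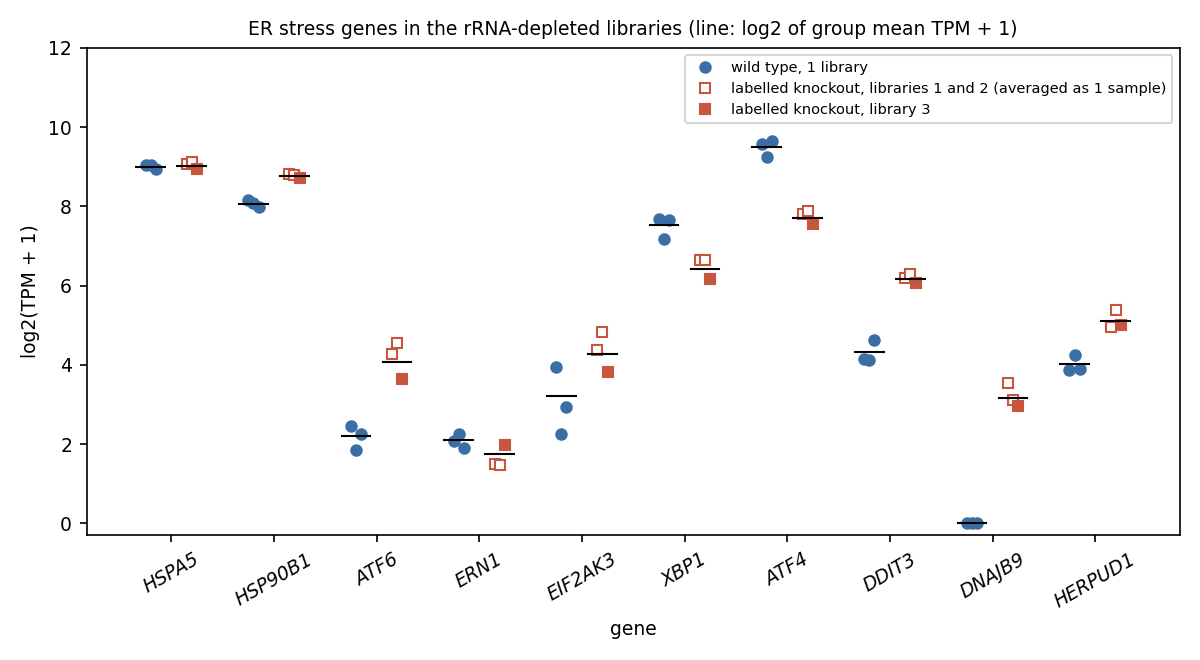
Levels of the 10 genes as log2(TPM + 1) in each rRNA-depleted library, with circles for wild type, squares for the labelled knockout (open for libraries 1 and 2, which count as 1 sample) and a line for the group mean. ATF4 and XBP1 lie lower and HSP90B1, DDIT3, DNAJB9, HERPUD1 and ATF6 higher in every knockout-labelled library, while HSPA5, EIF2AK3 and ERN1 overlap.

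ATF4 is the bZIP factor through which eIF2 phosphorylation is read out. In the rRNA-depleted libraries it was the most abundant of the 10 genes in wild type and fell most steeply of the set. It lies at chr22:39519695-39522685 on the plus strand (GRCh38, as for all positions here). Its levels were 755, 601 and 800.1 TPM in wild type, from 268, 146 and 336 reads, and 224, 236 and 188 TPM in the labelled knockout, from 168, 217 and 73 reads. Every wild-type library stood far above every knockout-labelled one. The means were 719 ± 104 (SD, n = 3) and 209 ± 30.2 (SD, n = 2) TPM, 3.44-fold lower, with a limma log2 change of -1.77 (adjusted p = 0.00254, SE 0.17). This was 1 of 2 genes of the set below the all-gene median by more than 1 log2 unit. The annotation holds 4 pseudogenes of it, ATF4P1 to ATF4P4, with which reads could be shared.

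DDIT3, the bZIP factor CHOP that ATF4 activates in stressed cells, went the other way. Its levels were 16.8, 16.3 and 23.6 TPM in wild type and 71.5, 77.9 and 66.3 TPM in the labelled knockout. Every knockout-labelled library was above every wild-type one. From 18.9 ± 4.09 (SD, n = 3) the mean went to 70.5 ± 5.92 (SD, n = 2) TPM, a 3.73-fold rise with a limma log2 change of 1.86 (adjusted p = 0.00458, SE 0.23). The reads behind these values were few, 3, 2 and 5 in wild type and 27, 36 and 13 in the labelled knockout. DDIT3 lies at chr12:57516588-57521737 on the minus strand, and 355 of its 1307 exon bases (27.2%) overlap MARS1, the methionyl-tRNA synthetase on the opposite strand. Whether the counting used strand is not stated, and MARS1 itself rose from 60.9 ± 1.73 (SD, n = 3) to 121 ± 10.03 TPM (SD, n = 2, log2 change 0.98, limma adjusted p = 0.00461). The part of MARS1 reads in the DDIT3 value was not tested. Without knockout-labelled library 3, which leaves 1 sample in that group, the limma adjusted p of DDIT3 was 0.0589.

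XBP1, the factor made active by ERN1, fell together with ATF4. It was listed at 204, 144 and 202 TPM in wild type and 98.5, 98.6 and 70.4 TPM in the labelled knockout. The groups did not overlap, and wild-type library 2 was the closest to the knockout-labelled ones. Its mean went from 183 ± 34.1 (SD, n = 3) to 84.5 ± 19.9 (SD, n = 2) TPM, 2.17-fold lower, with a limma log2 change of -1.11 (adjusted p = 0.0185, SE 0.23). The gene lies at chr22:28794555-28800597 on the minus strand, and reads per gene do not separate its spliced from its unspliced mRNA. The annotation also holds 1 pseudogene of XBP1, XBP1P1, with which reads could be shared. The call was lost without wild-type library 1, wild-type library 3 or knockout-labelled library 3 (limma adjusted p of 0.0526, 0.0516 and 0.155).

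The 3 sensors were listed at low levels and differed among themselves. ATF6, at chr1:161766294-161964070 on the plus strand, was listed at 4.49, 2.62 and 3.79 TPM in wild type (5, 2 and 5 reads) and 18.3, 22.6 and 11.5 TPM in the labelled knockout (43, 65 and 14 reads). Its mean rose 4.38-fold, from 3.64 ± 0.943 (SD, n = 3) to 15.9 ± 6.33 (SD, n = 2) TPM, with a limma log2 change of 1.84 (adjusted p = 0.0308, SE 0.46). The groups of ATF6 did not overlap, but the call was lost under 8 of 18 alternatives, among them leaving out wild-type library 2, wild-type library 3 or knockout-labelled library 3 (limma adjusted p of 0.0509, 0.0596 and 0.0864).

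EIF2AK3, the PERK kinase that acts upstream of ATF4, was listed at 14.3, 3.81 and 6.61 TPM in wild type and 19.7, 27.2 and 13.1 TPM in the labelled knockout. Wild-type library 1 lay above knockout-labelled library 3, so the groups overlapped. Its means were 8.25 ± 5.45 (SD, n = 3) and 18.3 ± 7.36 (SD, n = 2) TPM, and its log2 change of 1.17 (95% interval -0.36 to 2.70, limma adjusted p = 0.19) did not pass the test. EIF2AK3 lies at chr2:88556741-88627576 on the minus strand, and 781 of its 5434 exon bases (14.4%) overlap the opposite-strand gene AC104134.1.

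ERN1, the sensor that splices XBP1, was listed at 3.26, 3.81 and 2.76 TPM in wild type and 1.85, 1.76 and 2.97 TPM in the labelled knockout, on 4 to 7 reads per library. Wild-type library 3 lay below knockout-labelled library 3. The log2 change of -0.35 had a 95% interval from -1.44 to 0.74 (limma adjusted p = 0.564), so the interval includes a 2-fold decrease on this scale. The gene lies at chr17:64039142-64130819 on the minus strand.

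The chaperone HSPA5 (BiP), the lumenal Hsp70 that holds the sensors inactive, did not pass the test in the rRNA-depleted libraries. It was listed at 522, 522 and 489 TPM in wild type and 539, 558 and 492 TPM in the labelled knockout, on 197 to 796 reads per library. The ranges of the groups overlapped. Its means were 511 ± 19.1 (SD, n = 3) and 521 ± 39.8 (SD, n = 2) TPM, with a log2 change of 0.03 (95% interval -0.22 to 0.28, limma adjusted p = 0.859). Because the median gene was higher by 0.41, HSPA5 stood 0.39 below it, and its sign turned under 5 alternatives without passing the threshold in any of them. HSPA5 lies at chr9:125234853-125241330 on the minus strand.

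HSP90B1 (GRP94), the lumenal Hsp90, rose while HSPA5 did not. Its levels were 283, 269 and 250.3 TPM in wild type and 449.7, 438 and 417 TPM in the labelled knockout. The lowest knockout-labelled library was above the highest wild-type one by more than the spread of either group. The mean went from 267 ± 16.2 (SD, n = 3) to 431 ± 18.8 (SD, n = 2) TPM, 1.61-fold higher, with a limma log2 change of 0.69 (adjusted p = 0.00694, SE 0.10). The call ended after median ratio scaling (log2 change 0.33, limma adjusted p = 0.0601), after removal of the trend with GC content (0.20, limma adjusted p = 0.146) and without knockout-labelled library 3 (limma adjusted p = 0.0518). HSP90B1 lies at chr12:103930107-103953645 on the plus strand, and 2 pseudogenes, HSP90B2P and HSP90B3P, could share its reads.

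HERPUD1, a membrane protein of the ER degradation complex, was listed at 13.7, 18.1 and 13.9 TPM in wild type (10, 9 and 12 reads). In the labelled knockout it was at 29.9, 40.9 and 31.3 TPM (46, 77 and 25 reads). All knockout-labelled libraries were above all wild-type ones. It rose 2.19-fold, from 15.2 ± 2.44 (SD, n = 3) to 33.4 ± 2.89 (SD, n = 2) TPM, with a limma log2 change of 1.09 (adjusted p = 0.0225, SE 0.24). The gene lies at chr16:56932048-56944863 on the plus strand. Its call was lost under 6 alternatives, among them median ratio scaling (log2 change 0.75, limma adjusted p = 0.071) and leaving out wild-type library 1, wild-type library 3 or knockout-labelled library 3 (limma adjusted p of 0.0528, 0.0511 and 0.109).

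DNAJB9 (ERdj4), an HSPA5 co-chaperone that is a target of XBP1, had no read in any wild-type library. In the labelled knockout it was listed at 10.6, 7.72 and 6.83 TPM, from 9, 8 and 3 reads. All 3 wild-type libraries were thus at 0 and all 3 knockout-labelled libraries above 0. A limit of 3 reads per library corresponds in wild type to 7.49, 10.9 and 6.33 TPM, and the knockout-labelled mean of 8.004 ± 1.66 (SD, n = 2) TPM is 0.97 of the mean of these limits, so no fold is given. It entered the fit only through the knockout-labelled group, and its fitted log2 change ran from 1.37 to 6.33 over the alternatives, so no test of it is given. It was outside the genes tested once reads were thinned to the shallowest library or a mean of 5 reads was asked for. DNAJB9 lies at chr7:108569568-108574850 on the plus strand.

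Because each change runs on few samples, the exact two-sided permutation test over samples could not go below 0.2. It gave 0.2 for HSP90B1, ATF6, XBP1, ATF4, DDIT3 and HERPUD1, a value that follows from groups that do not overlap. DNAJB9 is left out here, since it passed the filter through 1 group only. For HSPA5, ERN1 and EIF2AK3 the exact permutation p was 0.8, 0.4 and 0.4.

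**Figure D2:**
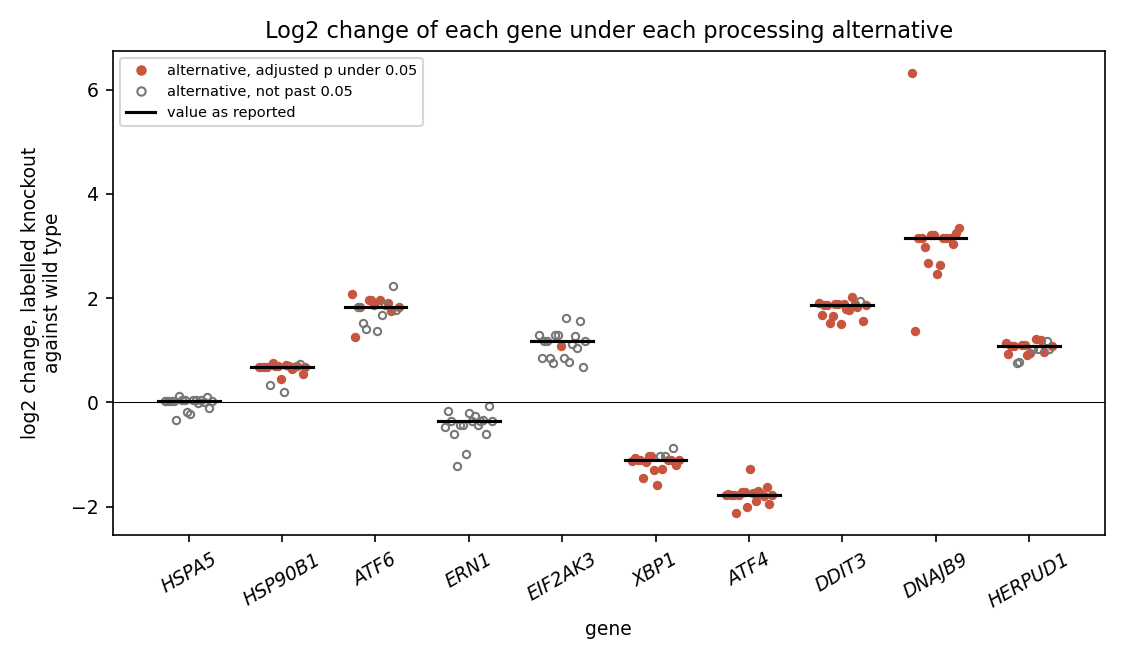
Log2 change of the 10 genes under each processing alternative (points, filled where the limma adjusted p is under 0.05), with the value as reported as a line. ATF4 stays between -2.13 and -1.28 and past the threshold in all 18, whereas HSPA5 lies on both sides of 0.

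Since TPM is scaled for gene length, the levels of the 10 genes can be put in order within a group. In wild type the order of mean TPM was ATF4, HSPA5, HSP90B1 and XBP1, each without overlap with the next, then DDIT3, HERPUD1, EIF2AK3, ATF6 and ERN1, whose libraries overlapped from one to the next, and DNAJB9 at 0. In the labelled knockout it was HSPA5, HSP90B1, ATF4, XBP1, DDIT3, HERPUD1, EIF2AK3, ATF6, DNAJB9 and ERN1, with overlap between XBP1 and DDIT3 and between EIF2AK3 and ATF6. ATF4 thus went from first to below both chaperones in the rRNA-depleted libraries. The ratio of DDIT3 to ATF4 in TPM was 0.0222, 0.0272 and 0.0296 in wild type and 0.319, 0.329 and 0.354 in the labelled knockout. Means of this ratio were 0.0263 ± 0.00374 (SD, n = 3) and 0.339 ± 0.0206 (SD, n = 2), and the 2 ranges lie far apart, though DDIT3 had only 3, 2 and 5 wild-type reads. The ratio of HSP90B1 to HSPA5 went from 0.523 ± 0.0157 (SD, n = 3) to 0.828 ± 0.0272 (SD, n = 2), that of XBP1 to ATF4 from 0.253 ± 0.0154 (SD, n = 3) to 0.402 ± 0.0373 (SD, n = 2), and that of ATF4 to HSPA5 from 1.41 ± 0.244 (SD, n = 3) to 0.400 ± 0.0274 (SD, n = 2). None of these 4 ratios overlapped between the groups, and each gave the exact permutation p of 0.2 that is the smallest possible, also after adjustment over the 4. For DDIT3 to ATF4 this outcome was fixed in advance, since DDIT3 was higher and ATF4 lower in every knockout-labelled library. For ATF4 to HSPA5 it was fixed too, since ATF4 was above HSPA5 in every wild-type library and below it in every knockout-labelled one. The ranges of the single genes also fixed it for HSP90B1 to HSPA5. These ratios therefore add no support beyond that of the single genes. How often ratios of other gene pairs overlap was not tested. A ratio within a library is free of the scaling of the whole library, though not of the trend with GC content.

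Changes across all genes followed GC content in these libraries. Over 10 bins the median log2 change was 1.24 at the lowest GC content and -0.41 at the highest. HSP90B1 (41.2% GC) had a change 0.23 below the median of its bin, whereas ATF6 (41.3% GC) and XBP1 (41.5% GC), which share the bin, were 0.93 above and 2.02 below it. ATF4 (56.7% GC) lay 1.75 below a bin median of -0.02, and DDIT3 (49.7% GC) 1.44 above one of 0.42. HERPUD1 lay 0.44 above its own. What part this trend has in the changes was tested only by removing it, after which ATF4, XBP1, DDIT3 and HERPUD1 still passed the limma threshold and HSP90B1 and ATF6 did not.

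**Figure D3:**
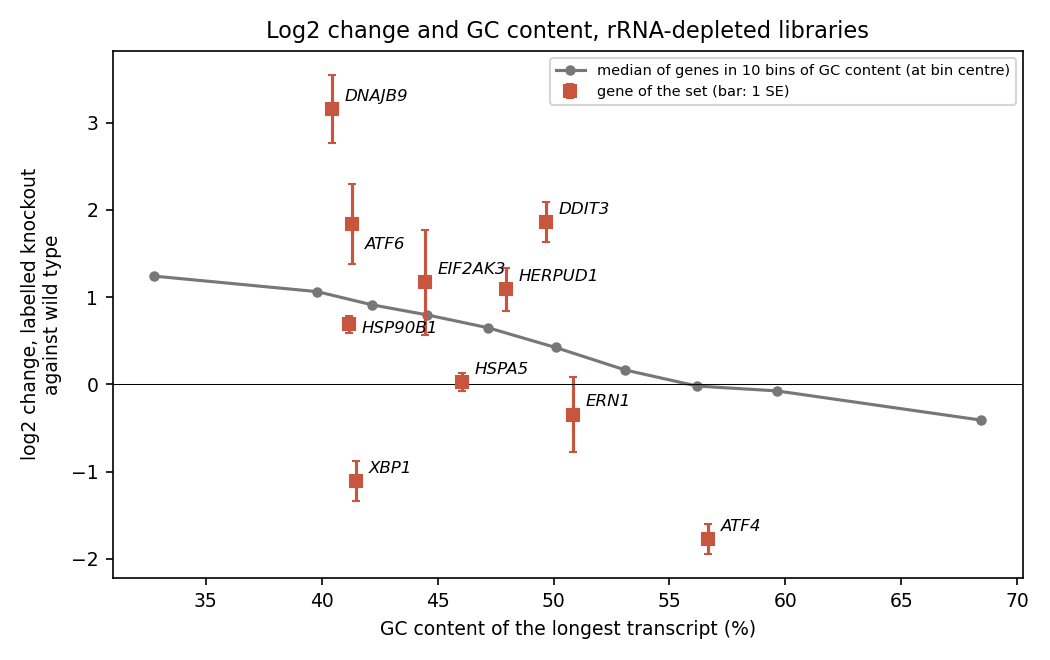
Log2 change in the rRNA-depleted libraries against the GC content (%) of the longest transcript for the 10 genes (squares, bar 1 SE), with the median of all tested genes in 10 bins of GC content (grey). ATF4 and XBP1 lie 1.75 and 2.02 under the median of their bins, and HSP90B1 lies 0.23 under its own.

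Exact matches to short ER stress elements stand in the promoters of 4 of these genes, which are shown because genes that share an element had different directions here. The ER stress response element (ERSE, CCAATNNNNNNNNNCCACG) is the site through which cleaved ATF6 and XBP1 act together with the CCAAT factor, and ERSE-II (ATTGGNCCACG) is its compact form. In the 250 bases before the RefSeq start of 27305 genes, searched on both strands, ERSE was found in 22 (0.0806%), and 3 of them were HSPA5, HSP90B1 and XBP1. ERSE-II was found in 14 (0.0513%), among them HERPUD1. The C/EBP-ATF element (CARE, TGATGNAA) that ATF4 dimers use was found in 870 (3.19%), and of the 10 genes only HERPUD1 held it. The UPR element TGACGTGG was in 182 (0.667%) and in none of the 10, which says only that these letters are not in this window. The sequences below are from RefSeq, GRCh38.p14, 5′ to 3′ on the gene's strand and cut at the first annotated exon, with the matching element in capitals.
HSPA5: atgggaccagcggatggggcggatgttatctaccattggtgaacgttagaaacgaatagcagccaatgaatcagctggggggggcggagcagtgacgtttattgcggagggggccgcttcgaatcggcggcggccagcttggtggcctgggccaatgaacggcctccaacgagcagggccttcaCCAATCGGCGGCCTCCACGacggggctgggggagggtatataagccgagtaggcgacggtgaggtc
XBP1: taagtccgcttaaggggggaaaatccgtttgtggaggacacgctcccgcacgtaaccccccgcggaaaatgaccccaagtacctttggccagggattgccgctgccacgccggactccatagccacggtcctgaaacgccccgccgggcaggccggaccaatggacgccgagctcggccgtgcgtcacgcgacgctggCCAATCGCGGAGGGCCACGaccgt
HERPUD1: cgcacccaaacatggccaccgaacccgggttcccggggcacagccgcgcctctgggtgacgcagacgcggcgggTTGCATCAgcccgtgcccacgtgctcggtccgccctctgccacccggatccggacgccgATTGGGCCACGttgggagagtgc

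The HSPA5 sequence is chr9:125241344-125241593 on the minus strand, and its ERSE ends 48 bases before the start. The XBP1 sequence is chr22:28800598-28800819 on the minus strand, with its ERSE ending 34 bases before the start. The HERPUD1 sequence is chr16:56931892-56932047 on the plus strand, where the first run of capitals is a CARE read on the opposite strand and the second is the ERSE-II, which ends 107 bases before the start. HSP90B1 held an ERSE on each strand, 176 and 71 bases before the RefSeq start at their near ends. Its window, chr12:103930160-103930409, lies inside the annotated gene, which begins at position 103930107, so only the elements are shown. Both are given because their spacer letters differ.
HSP90B1 ERSE, gene strand: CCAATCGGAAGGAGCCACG
HSP90B1 ERSE, opposite strand: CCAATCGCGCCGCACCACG

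With this element in common, HSPA5 had a log2 change of 0.03 that did not pass the test, HSP90B1 rose by 0.69 and XBP1 fell by 1.11 on the log2 scale. Among the 14 tested genes with an ERSE in this window, 3 were higher and 4 lower, beside 22.9% and 12.4% of all genes, with a median of 0.47 beside 0.41. Of 136 tested genes with a CARE 41 were higher and 8 lower (median 0.90), and of 82 with the UPR element 25 were higher and 1 lower (median 0.85). In the poly(A) comparison described below, 16 of 141 genes with a CARE were higher and 18 lower (median 0.02). There 9 of 80 with the UPR element were higher and 7 lower (median 0.04), and 1 of 14 with an ERSE was higher and 4 lower (median 0.01). Of all genes there 9.55% were higher and 10.3% lower (median 0.02). A match is a description of letters and not of binding.

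In the poly(A) libraries the contrast was read from the authors' deposited table, which gives a log2 fold change per gene and no value per library. Its direction and its library type are not stated. Positive was taken as higher in the labelled knockout because 162 of 177 genes (91.5%) past both thresholds with a log2 change of at least 1 in both had the same sign, and poly(A) because RN7SL1, an RNA without a poly(A) tail, had a mean normalized count of 5.43 there against 1513 to 50047 TPM in the rRNA-depleted libraries. Only 2 of the 10 genes passed an adjusted p of 0.05 in the authors' deposited table, both lower, where 19.9% of 14009 genes passed, 9.55% higher and 10.3% lower. These were HSP90B1, with a log2 fold change of -0.19 (SE 0.05, adjusted p = 0.0019) in the authors' deposited table, and HSPA5, with -0.16 (SE 0.05, adjusted p = 0.014). HSP90B1 therefore has opposite signs in the 2 library types, and the difference itself was not tested. METTL3 had a log2 fold change of 0.09 (SE 0.11, adjusted p = 0.654) in the authors' deposited table.

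The genes with the clearest changes in the rRNA-depleted libraries had small changes here. Over all tested genes the SD of the log2 change was 0.78 here and 1.60 in the rRNA-depleted libraries, on scales computed differently. ATF4 had a log2 fold change of -0.20 (SE 0.13, adjusted p = 0.314) in the authors' deposited table, on a mean normalized count of 115, the same sign at a fraction of the size. Such counts, pooled over both groups and not scaled for gene length, were 2783 for HSPA5, 2240 for HSP90B1 and 254 for XBP1. By count ATF4 was thus not first there. For DDIT3 the authors' deposited table gave -0.47 (SE 0.21, adjusted p = 0.102), the opposite sign to the rRNA-depleted libraries. XBP1 stood at 0.14 (SE 0.11, adjusted p = 0.421) and HERPUD1 at -0.01 (SE 0.11, adjusted p = 0.96) in the authors' deposited table. DNAJB9, at 0 reads in the rRNA-depleted wild type, had a mean normalized count of 59.9 and a log2 fold change of 0.30 (SE 0.16, adjusted p = 0.198) in the authors' deposited table. The sensors ATF6, EIF2AK3 and ERN1 had log2 fold changes of -0.10, 0.63 and 0.26 in the authors' deposited table (adjusted p of 0.726, 0.474 and 0.797), and EIF2AK3 and ERN1 had mean normalized counts of only 6.58 and 5.99. None of the 10 genes passed in the same direction in both library types.

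**Figure D4:**
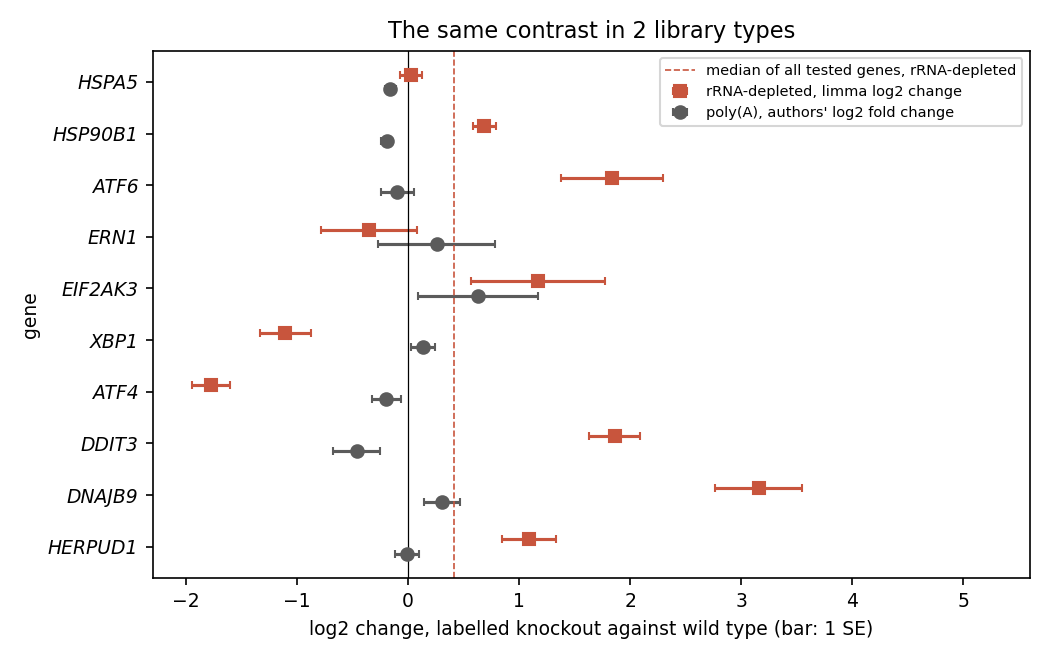
Log2 change of the 10 genes in the rRNA-depleted libraries (squares, limma) and log2 fold change in the poly(A) libraries (circles, the authors' deposited table), with bars of 1 SE and a dashed line at the rRNA-depleted median of all genes, 0.41. The poly(A) values lie between -0.47 and 0.63, while the rRNA-depleted values run from -1.77 to 1.86, apart from DNAJB9, whose fitted value has no wild-type read behind it. The SD over all tested genes was 0.78 in poly(A) and 1.60 in the rRNA-depleted libraries.

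Around these 10 genes stand 7 lists of the wider response, 108 genes in all including the 10, of which 107 passed the filter. In the rRNA-depleted libraries 48 of them were higher, 10 lower and 49 not past the limma threshold, with a median log2 change of 0.79, or 0.76 with DNAJB9 at its bound. Of all genes tested 22.9% were higher and 12.4% lower, the shares against which each list's counts below are to be read. DNAJB9 was the 1 gene of these lists that passed the filter through 1 group only, and without it 47 of 106 were higher. Without the 10 genes the counts were 43, 8 and 46 of 97. Without knockout-labelled library 3 the count of higher genes was 13, made up of 2 chaperones, 0 sensors, 1 degradation gene, 3 translocation genes, 2 eIF2 regulators, 0 bZIP factors and 5 amino acid or tRNA genes. Among the sensors and regulators the counts were 1 higher and 0 lower without wild-type library 3, 0 lower without wild-type library 1, and 1 higher and 1 lower without wild-type library 2. Of the bZIP factors 2 were higher without wild-type library 1 or wild-type library 3. In the authors' deposited table the same 107 genes gave 12 higher, 22 lower and 73 not past the threshold, beside 9.55% higher and 10.3% lower of all genes, with a median of -0.08 beside 0.02 for all genes.

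Of 17 ER chaperones and folding enzymes, 4 were higher and 5 lower in the rRNA-depleted libraries, the first near the 22.9% of all genes that were higher (12.4% were lower), with a median log2 change of 0.06 that lies below the all-gene median. SDF2L1, a partner of the lumenal Hsp70 system, fell from 498 ± 108 (SD, n = 3) to 88.9 ± 15.6 (SD, n = 2) TPM, a log2 change of -2.46 (limma adjusted p = 0.0022). The oxidase gene ERO1B was also lower (-1.91, limma adjusted p = 0.0473), on at most 15 reads per library, a call lost under 9 alternatives. Higher were the disulfide isomerase PDIA6 (log2 change 1.62, limma adjusted p = 0.00424) and the cyclophilin PPIB (1.19, limma adjusted p = 0.00167). One gene of the 17, PPIB at 0.58, was higher in the authors' deposited table, and 8 were lower, led by MANF at -0.84 and SDF2L1 at -0.76. SDF2L1 and PPIB thus moved in the same direction in both library types.

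Of the list of sensors and their regulators 10 of 11 genes were tested, 2 higher and 2 lower in the rRNA-depleted libraries. Beside ATF6, the gene for the site-1 protease that cuts ATF6, MBTPS1, rose from 15.5 ± 0.555 (SD, n = 3) to 45.3 ± 2.90 TPM (SD, n = 2, log2 change 1.48, limma adjusted p = 0.00524). Beside XBP1, TRAF2, an adaptor that binds activated ERN1, was lower (log2 change -0.57, limma adjusted p = 0.0371), although its value was 0.00 once the GC trend was removed. The authors' deposited table gave TRAF2 the same log2 fold change of -0.57 (adjusted p = 0.00257), and BAK1, a cell death gene of the BCL2 family, -0.72 (adjusted p = 0.00243).

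In the lists of degradation and of translocation genes, as in the list of amino acid and tRNA genes below, all calls in the rRNA-depleted libraries were higher as reported. Of 16 genes of ER-associated degradation 7 were higher and 0 lower, or 6 of 15 without DNAJB9, with a median log2 change of 0.93 (0.88 with DNAJB9 at its bound). Apart from DNAJB9, for which no fold can be given, the gene with the largest log2 change was DERL2, a channel component, which rose from 4.29 ± 3.08 (SD, n = 3) to 26.5 ± 1.07 TPM (SD, n = 2, log2 change 2.54, limma adjusted p = 0.0225). DERL2 had at most 7 reads in any wild-type library. Under 7 alternatives 1 or 2 genes of this list were lower, so the absence of lower calls is no fixed property of it. Of 15 genes of translocation and transport 11 were higher and 0 lower, with a median of 1.29. Removing the GC trend gave 2 lower genes in this list. SEC61B, a subunit of the translocon, went from 25.3 ± 4.86 (SD, n = 3) to 222 ± 0.0799 TPM (SD, n = 2, log2 change 3.10, limma adjusted p = 0.00124). Its knockout-labelled libraries were at 242.2, 202.5 and 222.5 TPM, a spread that the SD over the 2 samples hides. SPCS1, of the signal peptidase, went from 3.34 ± 2.97 (SD, n = 3) to 32.2 ± 0.812 TPM (SD, n = 2, log2 change 3.14, limma adjusted p = 0.0158). Wild-type libraries held at most 5 reads of SEC61B and 6 of SPCS1. Both were lower in the authors' deposited table, SEC61B at -0.66 and SPCS1 at -0.33, as was SEC61G at -0.63. SEC62 and SEC61A1, the list's 2 higher genes of the authors' deposited table at 0.25 and 0.20, were also higher in the rRNA-depleted libraries. ERLEC1 (0.71) and the ubiquitin ligase SYVN1 (0.55) were the degradation genes that were higher in the authors' deposited table, where EDEM2 (-0.42) and OS9 (-0.34) were lower.

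Of 13 kinases and regulators of eIF2, 6 were higher and 2 lower in the rRNA-depleted libraries, beside 22.9% and 12.4% of all genes. EIF2S1, the subunit that stress kinases phosphorylate, went from 31.4 ± 0.333 (SD, n = 3) to 123 ± 22.04 TPM (SD, n = 2, log2 change 1.92, limma adjusted p = 0.00204). EIF2AK1, the haem-sensing kinase, was higher by 1.91 (limma adjusted p = 0.0486), and that call was lost under 9 alternatives. Lower were PPP1R15A (GADD34), the stress-induced phosphatase subunit that reverses the phosphorylation (-0.97, limma adjusted p = 0.00292), and EIF2AK2 (PKR), the kinase that binds double-stranded RNA. EIF2AK2 was listed at 188, 170.3 and 191 TPM in wild type and 89.1, 95.8 and 83.5 TPM in the labelled knockout (log2 change -1.05, limma adjusted p = 0.00342), whereas the authors' deposited table gave it a log2 fold change of 1.26 (adjusted p = 5.86e-39). Its calls were opposite in the 2 library types, and the difference was not tested. In the authors' deposited table EIF2AK4 (GCN2, 0.35) was also higher, and EIF2B5 (-0.48), EIF2S2 (-0.42) and EIF2S1 (-0.29) were lower.

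The last 2 lists gather genes placed downstream of ATF4. The list of bZIP factors also holds ATF4 itself, so its counts are not those of ATF4 targets alone. Of 22 genes for amino acid synthesis, transport and tRNA charging 14 were higher, 0 lower and 8 not past the threshold in the rRNA-depleted libraries, with a median log2 change of 1.28, and 1 was lower when recovered reads were fitted with voom. SLC38A2, an amino acid transporter, was listed at 31.1, 25.1 and 27.2 TPM in wild type and 334, 304 and 232 TPM in the labelled knockout. No library of one group came near those of the other (log2 change 3.25, limma adjusted p = 0.00112), and in the authors' deposited table it was higher too, at 0.48 (adjusted p = 2.66e-04). ASNS, asparagine synthetase, went from 2.53 ± 1.84 (SD, n = 3) on 1 or 2 reads per library to 50.6 ± 4.36 TPM (SD, n = 2, limma adjusted p = 0.00491), while the authors' deposited table gave -0.06 (adjusted p = 0.843). WARS1 was the other large rise in the authors' deposited table (0.46), where MARS1 was the 1 lower gene of the list (-0.24). Of 14 bZIP factors and regulators downstream of ATF4, 4 were higher, 1, ATF4 itself, was lower and 9 did not pass, beside 22.9% and 12.4% of all genes, with a median of -0.05. With median ratio scaling 3 of this list were lower, and with voom 4. CEBPG, a dimer partner of ATF4, was higher by 2.38 (limma adjusted p = 0.0273), and in the authors' deposited table CHAC1 (0.91) and VLDLR (0.71) were the 2 higher genes.

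**Figure D5:**
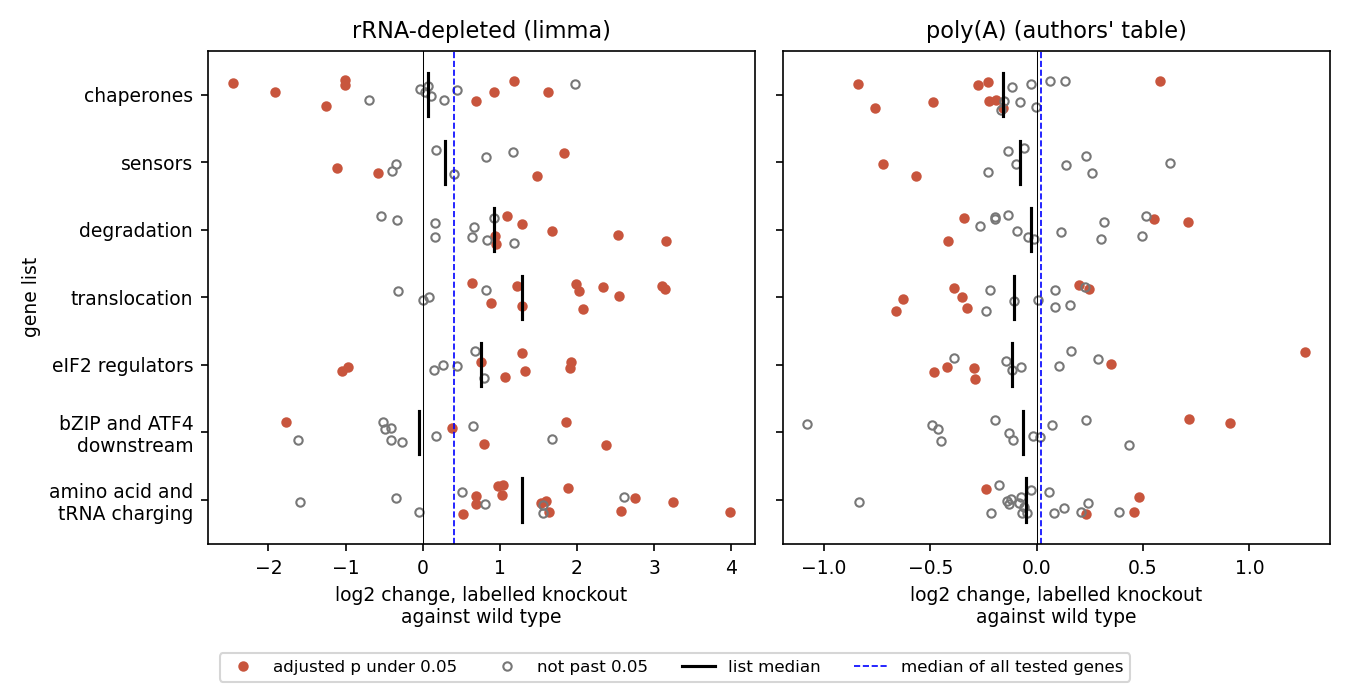
Log2 change of each tested gene in the 7 lists, in the rRNA-depleted libraries (limma) and in the authors' deposited table of the poly(A) libraries, filled where the adjusted p is under 0.05, with list medians (black) and the median of all tested genes (dashed). List medians run from -0.05 to 1.29 in the rRNA-depleted libraries and from -0.16 to -0.03 in the poly(A) libraries.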

How the data were processed

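Gene levels of the 6 rRNA-depleted libraries were deposited by the authors as TPM for 60669 genes, and the contrast of the 10 poly(A) libraries as a comparison table. In that table, per the file headers, the authors give a mean normalized count per gene (a signal divided by size factors), a log2 fold change with its SE, a test statistic (a score) and p-values. Trimmomatic, STAR, DESeq2 and hg38 are named in the submitters' processing notes, and their versions and settings are not given in the sources used here.

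TPM was multiplied by GENCODE 29 exon lengths to recover reads: 90.9% of 91124 values above 0 were whole to within 0.02 reads, and 93.8% of gene IDs had a length. Recovered depth was 266157 to 1267171 reads per library, and the read numbers given cover counting error only. The pair of knockout-labelled libraries that did not differ detectably beyond sampling noise was averaged. Genes that reached 1 TPM in 3 or more libraries were tested with limma 3.58.1 (R 4.3.3) on log2(TPM + 1), a scale that understates changes of low genes, with Benjamini-Hochberg adjustment over all genes and a threshold of 0.05. The code was tested on simulated data. Same-numbered libraries carry no stated pairing.

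Promoters were RefSeq windows of GRCh38.p14. The 10 genes, the 7 lists and the tests were chosen with earlier results of these data known. Genes named from a list were those with the 2 largest changes in each direction past the threshold, in each library type, beside METTL3 and the 10 genes. Alternatives were another pseudocount (0.1 or 5), other filters, median ratio and quantile scaling, voom with TMM on recovered reads, removal of the GC trend, 6 separate libraries with and without a replicate block and leaving out each library. Thinned reads and a mean of at least 5 reads were added after seeing the data. Python 3.11.15 with scipy 1.17.1 gave the exact permutation tests.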

Additional observations from a re-analysis of the deposited data

How the results depend on the processing

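ATF4 was called lower under all 18 alternatives run (log2 change -2.13 to -1.28, limma adjusted p of at most 0.0465), whereas the calls of DNAJB9 say nothing about stability, since the filter kept it through 1 group only. The 5 higher genes of the set became 2 with median ratio scaling, 3 with quantile normalization, 3 with the GC trend removed and 2 with reads thinned to the shallowest library, and 1 to 5 when a library was left out, which also gave 1 to 2 lower genes. Leaving out a library gave 1663 to 5185 genes called, and 13 to 49 higher genes in the 7 lists. With voom on recovered reads 19 list genes were lower instead of 10. HSPA5 turned to -0.33 with median ratio scaling, -0.19 with voom, -0.23 with the GC trend removed, -0.11 with thinned reads and -0.0056 without wild-type replicate 3 (-0.0056 to 0.104 when a library was left out), and TRAF2 to 0.00 (0.004876) with the GC trend removed. EIF2AK3 passed the limma threshold with voom alone (adjusted p = 0.0487). The cause of these shifts was not tested, beside the smaller number of samples. In the authors' deposited table a log2 fold change of at least 1 left 647 genes called, 0 of the 10 and 1 of the list genes instead of 34, and an adjusted p of 0.01 left 1811 genes and 1 of the 10. For 16 other named genes, 254 of 288 values kept direction and call.

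Deviations of same-numbered libraries correlated at 0.02, -0.02 and 0.01, so the numbers were not taken as pairs. With the replicate block, 6 separate libraries gave 6037 genes called, against 6880 without it, and 5 higher and 2 lower genes of the set in both. Depth limits ERN1, EIF2AK3, DNAJB9, DDIT3 and ATF6 most, which had at most 11 reads in any wild-type library. HERPUD1 came next, with 10, 9 and 12 wild-type reads, and its call was lost with reads thinned to the shallowest library.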
